A study of Mus musculus with 6 samples.

Results

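PLX3397 (pexidartinib) blocks 3 receptor tyrosine kinases, and the transcripts of those receptors and of their 4 ligands were followed in macrophages sorted from tumours. The receptor genes were Csf1r, Kit and Flt3, and the ligand genes were Csf1, Il34, Kitl and Flt3l. Each gene was found by its symbol among the probe sets, the groups of array probes for one transcript, that the platform annotation gives exactly 1 symbol. All 7 genes were on the array, each with 1 probe set, so that choosing the brightest probe set per gene changed none of them. They are 7 of the 19938 genes tested.

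The macrophages came from C57BL/6 mice with hepa1-6 tumours, grown from a mouse hepatoma cell line implanted in the liver. The labels call them tumour-associated macrophages obtained by flow cytometry, without naming the markers of the gate. Each group, vehicle or PLX3397, had 3 Affymetrix Mouse Gene 1.0 ST arrays, 6 in all. The sources used here do not state the dose, the length of treatment, the age of the mice or any pooling. Each description field also holds a second name that belongs to cultured macrophages, given LPS and interferon-gamma in the vehicle group and IL4 in the PLX3397 group. Those names go against the titles and the treatment labels, which set the groups here. The labels number the samples as biological replicates without tying them to separate animals, and a p-value here therefore reflects no more than the spread between arrays, which may be technical.

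CSF1R is the receptor through which macrophages receive survival and growth signals, and it is switched on by either of its ligands, CSF1 and IL34. KIT answers to stem cell factor, the product of Kitl, and is known from mast cells and blood progenitors, while FLT3 answers to FLT3 ligand and is known from progenitors and the dendritic cells that descend from them. The receptors belong to one structural family, together with the PDGF receptors, and pass their signal on through SRC family kinases, PI3 kinase and the RAS-ERK cascade. Macrophages also remove CSF1 from their surroundings by taking it up through CSF1R.

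Values are log2 intensities as deposited, and a change is the PLX3397 mean minus the vehicle mean on that scale. A gene was called where its p-value from limma, adjusted over all genes, was below 0.05. The background level of an array was the 95th percentile of its 1194 olfactory and vomeronasal receptor genes, and lay between 3.52 and 3.58. All 10 macrophage markers, among them Adgre1, Cd68 and Itgam, were above it on every array, although 3 of them rose and 5 fell (3 without vehicle replicate 2 or 3 or PLX3397 replicate 3). Mrc1, Itgam and Cd14 rose by 1.26, 0.97 and 0.55. Siglec1, Fcgr1, Marco and Adgre1 fell by 1.44, 0.79, 0.43 and 0.42, and Cd68 was not called. Marco kept the call in 9 of 18 alternative settings. Arrays correlated across genes, which are not independent replicates, at 0.9961 to 0.9966 within vehicle and 0.9916 to 0.9963 within PLX3397. The lower values of the latter range both involved PLX3397 replicate 3 (0.992 and 0.9916). Of all genes 37.8% were called, 19.6% as higher and 18.3% as lower with PLX3397. With each array centred on its median, the median over all genes went from 0.04 to -0.09, and the higher share of calls from 51.7% to 30.6%.

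Of the 7 genes 2 rose, Csf1 and Kit, and 0 fell, a share near that of all genes called (37.8%). The promoters of these 2 genes are shown because theirs were the transcripts that passed the test. Each line gives the 250 bases before the start site on the gene's own strand from RefSeq (build GRCm38.p6), at chr3:107760470-107760719 on the minus strand for Csf1 and chr5:75574737-75574986 on the plus strand for Kit. Capitals mark letters that match a searched motif.
Csf1: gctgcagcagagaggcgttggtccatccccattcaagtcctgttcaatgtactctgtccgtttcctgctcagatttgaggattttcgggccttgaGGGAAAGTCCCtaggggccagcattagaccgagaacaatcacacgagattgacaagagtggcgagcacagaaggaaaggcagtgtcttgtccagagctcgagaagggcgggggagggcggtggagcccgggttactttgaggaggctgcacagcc
Kit: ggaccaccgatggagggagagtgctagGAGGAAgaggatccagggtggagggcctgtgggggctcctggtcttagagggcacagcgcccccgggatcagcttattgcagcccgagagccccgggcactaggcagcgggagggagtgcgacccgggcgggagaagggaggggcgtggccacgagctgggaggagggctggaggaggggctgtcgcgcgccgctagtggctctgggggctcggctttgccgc
In Csf1 the capitals hold an NF-kB-like motif (GGGA, any 3 bases, then TCC) on both strands, overlapping, with first bases at positions -155 and -154 relative to the start. That motif was added after the sequence had been seen, and 3.86% of 32851 promoters in the RefSeq table hold it in the same window. Kitl, whose transcript was below background, holds it too. In Kit the capitals are GAGGAA, a core bound by PU.1, at position -223, which 23.3% of promoters hold. The AP-1 motif TGANTCA is held by 6.75% of promoters on either strand. The GATA factor motif AGATAA is held by 9.99%. Of the E-box motifs searched, CACGTG is held by 6.02% of promoters, and the form recognised by MITF and its relatives, CATGTG, by 12.3%. The letters of these motifs are in neither window. The RefSeq table held 5 of the 7 genes, all but Csf1r and Il34. A match describes letters and shows no binding.

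Csf1r, the main target of the drug in macrophages, was bright and close to level between the groups. Its values were 10.93, 10.97 and 10.97 on the vehicle arrays and 10.97, 11.18 and 11.00 on the PLX3397 arrays. The groups overlapped, and PLX3397 replicate 2 was the highest array. The change from 10.96 ± 0.02 to 11.05 ± 0.11 (SD, n = 3 each) was 0.09 (95% interval -0.10 to 0.28, limma adjusted p = 0.441), and it was -0.04 with arrays centred on their medians. Genes of like level were often called, 65.8% of the 152 whose mean lay within 0.5 of that of Csf1r. In RNA from a sorted population, more cells with a transcript and more transcript per cell cannot be told apart, here and below.

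Kit rose from the edge of detection. The vehicle arrays read 3.63, 3.66 and 3.56, between 0.04 and 0.13 above background, and the PLX3397 arrays read 4.74, 4.67 and 4.70, between 1.10 and 1.16 above it. The groups were far apart, with little spread inside either. The change from 3.62 ± 0.05 to 4.70 ± 0.03 was 1.08 (SE 0.077, 95% interval 0.91 to 1.26, limma adjusted p = 2.33e-06), or 2.12-fold, the 578th largest rise of 19938 genes. Kit was called in all 18 alternative settings, with changes from 0.95 to 1.11. Within 0.5 of its mean level 31.5% of 3545 genes were called.

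Mast cells are the mature immune cells best known for KIT, and most genes of the joint mast cell and basophil marker list were not detected. Of 11 measured, 8 were below background on every array, among them the mast cell proteases Cpa3, Tpsab1 and Cma1 and the IgE receptor chains Fcer1a and Ms4a2. The tryptase gene Tpsb2 was level at 3.92 ± 0.01 and 3.95 ± 0.06. Of the list 2 genes rose and 0 fell, beside 19.6% of all genes called higher and 18.3% lower. Hdc, which makes histamine, rose by 3.59 (SE 0.25) and the transcription factor gene Gata2 by 3.22 (SE 0.17). Gata2 went from 4.21 ± 0.35 to 7.43 ± 0.24. These 2 genes carried the summed level of the list, in linear units, from between 101.7 and 116.9 with vehicle to between 366.7 and 522.6. The other 9 summed to between 74.7 and 76.2 with vehicle and between 73.3 and 79.3 with PLX3397. Here and below, the uncalled markers were picked by this same comparison. A level sum of theirs is therefore largely set by that choice and is no separate test of cell content. Of 9 progenitor markers 0 were called by limma, beside 37.8% of all genes. Of these 9, 1 had an unadjusted p below 0.05, Cd34, which read 3.31 ± 0.21 and 3.85 ± 0.51 (adjusted p = 0.074). Cd34 was called in 3 of 16 settings, among them that without PLX3397 replicate 2, with an adjusted p from 0.02 to 0.239 over all 16. Their summed levels were 98.48 to 107.5 with vehicle and 105.6 to 118.8 with PLX3397.

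Flt3 stayed near background and on the threshold of the test. Its vehicle values were 3.56, 3.55 and 3.61, at most 0.09 above background, and its PLX3397 values were 3.99, 3.78 and 3.72, between 0.16 and 0.42 above it. The groups did not overlap, as was the case for 49.3% of all genes (27.4% with PLX3397 higher). The change from 3.57 ± 0.03 to 3.83 ± 0.14 was 0.26 (95% interval 0.05 to 0.46, limma adjusted p = 0.050, just over the threshold). It was called in 6 of 17 alternative settings, among them the looser threshold of 0.1. Without PLX3397 replicate 3 the change was 0.31 (adjusted p = 0.0285), and without PLX3397 replicate 1 it was 0.17 (adjusted p = 0.18). With centred arrays the change was 0.12, and over all settings the adjusted p ran from 0.0222 to 0.358.

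Dendritic cells, the descendants of FLT3-bearing progenitors, were looked for beside it. Of 8 of their markers 4 rose and 0 fell, beside 19.6% of all genes called higher. The chemokine receptor gene Ccr7 rose by 3.35 (SE 0.28). Batf3 and Zbtb46, transcription factor genes of conventional dendritic cells, rose by 0.45 and 0.39. Itgae rose by 0.30 without exceeding background on any array, and it lost the call in 4 of 16 settings, among them centred arrays and those without vehicle replicate 2 or PLX3397 replicate 2. The lineage receptors Clec9a, Xcr1 and Siglech were below background on every array. The summed level of the list went from between 100.2 and 109.8 to between 219.9 and 399.8, and that of the 4 uncalled markers was between 37.5 and 38.5 with vehicle and between 38.6 and 42.4 with PLX3397. Whether cells of either kind contributed to Flt3 or Kit was not tested.

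**Figure D1:**
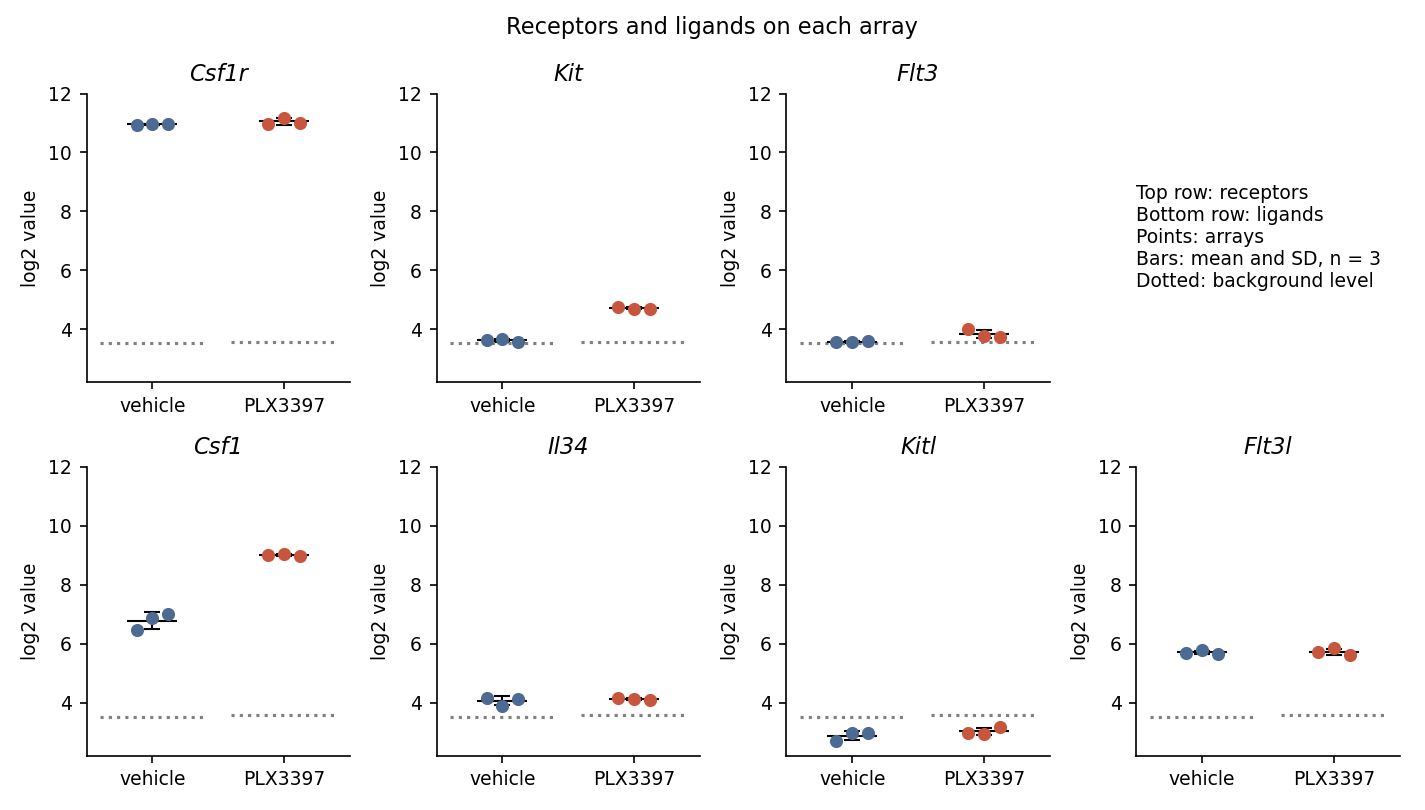
Log2 value of each receptor gene (top) and ligand gene (bottom) on the 3 vehicle and 3 PLX3397 arrays, with the mean and SD and, dotted, the mean background level of the group. Csf1 and Kit are clearly separated between groups, Flt3 narrowly, and Kitl lies below background on all 6 arrays.

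Among the ligands Csf1 changed by far the most. It read 6.45, 6.88 and 7.02 on the vehicle arrays and 9.01, 9.06 and 8.98 on the PLX3397 arrays. Every PLX3397 array was higher than every vehicle array, and vehicle replicate 1 was the lowest of all. The change from 6.79 ± 0.30 to 9.01 ± 0.04 was 2.23 (SE 0.13, 95% interval 1.93 to 2.52, limma adjusted p = 7.05e-07), a 4.69-fold rise. It ranked 173rd among the rises of all genes, at a level where 64.0% of 1612 genes were called. Its spread within groups exceeded that of 94.9% of those genes, and without vehicle replicate 1 the change was 2.06. Csf1 was called in all 18 alternative settings, with changes from 2.06 to 2.35.

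Il34, which encodes the other ligand of CSF1R, was low and level. The vehicle arrays read 4.16, 3.88 and 4.14 and the PLX3397 arrays 4.17, 4.14 and 4.10, between 0.36 and 0.63 above background. The groups overlapped, with vehicle replicate 2 the lowest array. The change from 4.06 ± 0.16 to 4.14 ± 0.04 was 0.08 (95% interval -0.13 to 0.28, limma adjusted p = 0.575), and its sign turned with quantile normalisation, with centred arrays and without vehicle replicate 2. In array values, a change the size of that of Csf1 lies outside this interval. The 2 genes differ in level, however, as Csf1 was at least 2.92 above background on every array.

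Flt3l was well above background and level. It read 5.67, 5.78 and 5.66 with vehicle and 5.72, 5.84 and 5.63 with PLX3397. Both the lowest and the highest array belonged to the PLX3397 group. The change from 5.71 ± 0.07 to 5.73 ± 0.10 was 0.02 (95% interval -0.17 to 0.22, limma adjusted p = 0.860). It turned to -0.11 with centred arrays and -0.03 without PLX3397 replicate 2. Kitl was not measurable in these cells. Its values of 2.70, 2.98 and 2.97 with vehicle and 2.98, 2.92 and 3.17 with PLX3397 all lay at least 0.39 below background, so no fold is given. The fitted change was 0.14 (95% interval -0.10 to 0.37, adjusted p = 0.346).

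**Figure D2:**
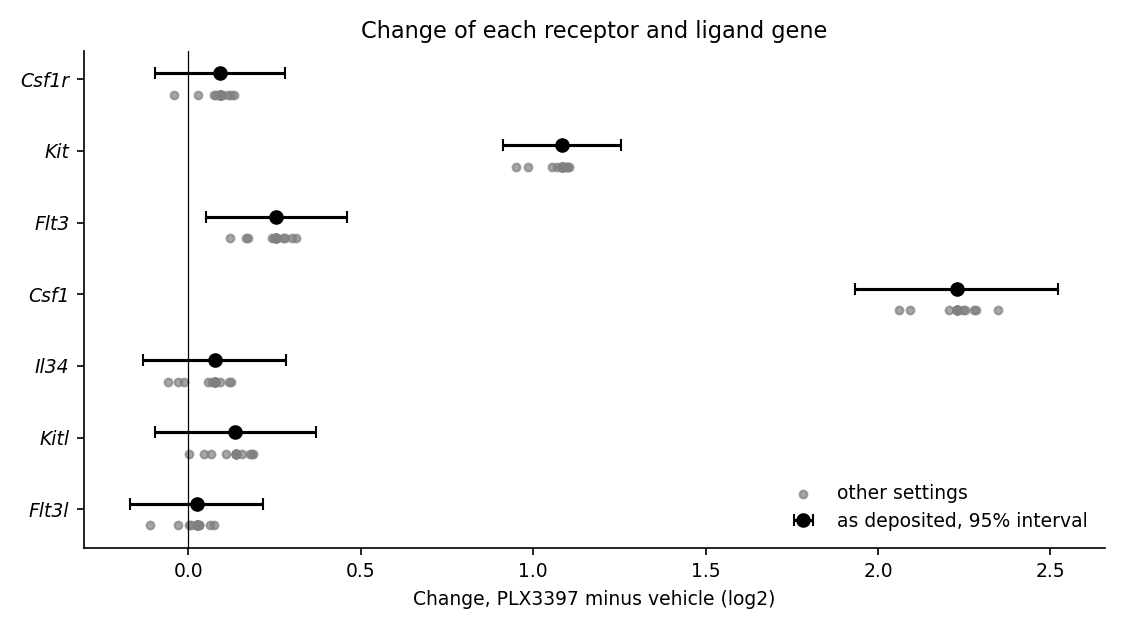
Change of each gene, PLX3397 minus vehicle on the log2 scale, with the 95% interval of the limma fit (black) and the change under each alternative setting (grey). The intervals of Csf1 and Kit lie far above 0, that of Flt3 lies just above it before adjustment over all genes, and those of the other 4 genes include it.

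CSF1 is also made by endothelial cells and fibroblasts, and their markers were set beside it. Of 12 endothelial markers 5 rose and 0 fell, beside 19.6% of all genes called higher. Kdr and Vwf rose by 1.70 and 1.30, Pecam1 went from 4.11 ± 0.17 to 5.71 ± 0.20, and Cdh5, the cadherin of endothelial junctions, rose by 1.03 from 3.59 ± 0.11 to 4.62 ± 0.29. The angiopoietin receptor gene Tek was below background on every array. The summed level of the list was between 219.3 and 245.4 with vehicle and between 499.4 and 520.6 with PLX3397, and that of the 7 markers that were not called was between 76.0 and 84.1 and between 81.4 and 94.8. Of 10 fibroblast and stellate cell markers 1 rose (Thy1, by 0.46) and 2 fell (Col1a1 and Col1a2, by 0.60 and 0.43). The number that rose was 4 without PLX3397 replicate 1 and 2 without vehicle replicate 3. Dcn, the decorin gene, had a change of 0.95 (SE 0.36, adjusted p = 0.0613) and was called in 6 of 18 settings. The summed levels overlapped, 510 to 730.9 against 530.1 to 1267, the last being PLX3397 replicate 3, where Acta2 read 8.79 and Des 4.95. The fall of Col1a2 lost the call in 7 of 18 settings, among them those without vehicle replicate 2 or 3 and without PLX3397 replicate 1 or 2. The part of such cells in the rise of Csf1 was not tested.

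The lists of other cell types rose in sum through a few genes each, beside 19.6% of all genes called higher and 18.3% called lower. Of 10 neutrophil markers 5 rose and 1 fell. Mmp8, S100a8 and Mmp9 rose by 5.48, 1.52 and 0.62, and Csf3r, the receptor gene for granulocyte colony-stimulating factor, fell by 1.55. The other rises were Ly6g and Ltf, which with Ngp and Cxcr2 were below background on every array. With centred arrays, with either filter on low levels, without vehicle replicate 2 and without PLX3397 replicate 3 the number that rose was 3. The list summed to between 3527 and 3641 with vehicle and between 7507 and 9273 with PLX3397, and its 4 uncalled markers to between 63.1 and 63.6 and between 60.3 and 66.1.

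Of 9 hepatocyte and hepatoma markers Alb, Ttr, Fgb, Apob and Ahsg were below background. Apoa2 (4.69 with vehicle and 4.69 with PLX3397) and Afp (4.07 and 4.00) were above it on every array but uncalled. Apoa1, also uncalled, was above it on 2 vehicle and 3 PLX3397 arrays. Only Trf, the transferrin gene, rose, by 2.85. The sum went from between 421.1 and 466.9 to between 2400 and 3052, and that of the other 8 was between 92.9 and 104.9 with vehicle and between 98.3 and 101.1 with PLX3397. Of 9 T cell markers Cd3e, Cd4, Cd8a and Cd8b1 were above background on every array but uncalled, and Cd3d and Cd3g were below it. Lat and Icos rose, by 1.95 and 0.79. The sum went from between 117.5 and 134.2 to between 193.9 and 206.7, and the other 7 summed to between 84.2 and 95.6 and between 90.0 and 94.1. Of 7 B cell and plasma cell markers 4 rose, of which Cd22 (1.29) and Cd79b (0.62) were above background. Cd79a and Ms4a1 were counted among the rises while below background on every array, as was the uncalled Jchain, and Cd79a lost the call in 9 of 16 settings, among them those without replicate 1 or 2 of either group. With either filter on low levels 2 rose. Pax5 and Ighm were above background on every array but uncalled. The sum went from between 157.6 and 170.1 to between 302.9 and 320.8, and the 3 uncalled markers summed to between 38.1 and 42.2 and between 37.0 and 43.1. Of 8 NK and innate lymphoid markers only Il7r rose (2.25) and 6 were below background. The sum went from between 191.5 and 259.1 to between 740.5 and 865, and the other 7 summed to between 61.4 and 64.6 and between 65.7 and 70.8.

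**Figure D3:**
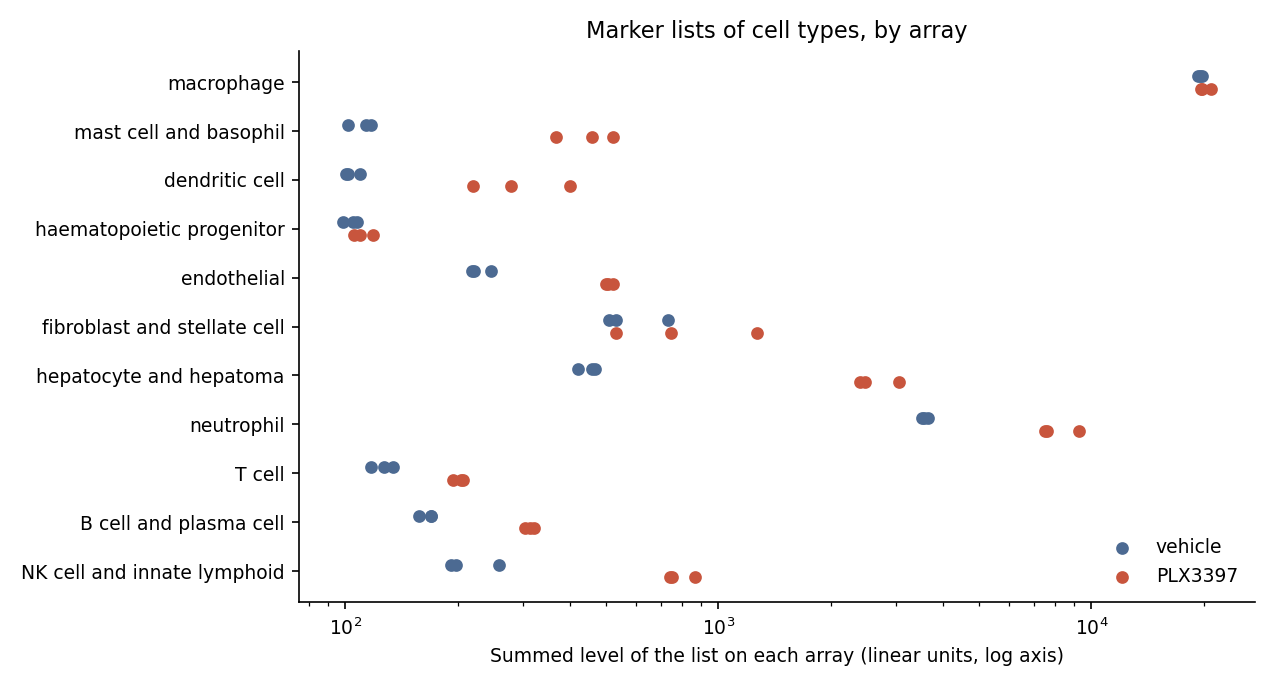
Summed level of each marker list on every array, as the sum of linear values on a log axis, for vehicle and PLX3397. Lists are to be compared between groups and not with each other. The mast cell, dendritic cell, endothelial, hepatocyte, neutrophil, T cell, B cell and NK cell lists sum to more on every PLX3397 array than on any vehicle array, and the macrophage, progenitor and fibroblast lists overlap.

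The genes of the PDGF receptors, relatives of the drug's targets, did not pass the test. Pdgfrb read 5.08 ± 0.21 and 5.37 ± 0.11 (change 0.29, 95% interval 0.04 to 0.54, limma adjusted p = 0.071) and Pdgfra 3.91 ± 0.11 and 3.86 ± 0.19 (change -0.05, 95% interval -0.29 to 0.20). Among the alternative settings Pdgfrb was called without vehicle replicate 3 and at a threshold of 0.1. Its adjusted p ran from 0.0221 to 0.32. Of the 6 PDGF receptor and ligand genes 2 rose and 0 fell, beside 19.6% of all genes called higher and 18.3% lower. The median change was 0.22 against 0.04 over all genes. The ligand gene Pdgfa read 6.38, 6.13 and 6.20 with vehicle and 8.49, 8.41 and 8.22 with PLX3397, with no overlap (change 2.14, SE 0.10, adjusted p = 1.68e-07). Pdgfb rose by 0.31, a call that was lost with centred arrays, without vehicle replicate 3 and without PLX3397 replicate 1. IL34 has other reported partners, and 1 of 3 rose and 1 fell, beside the same shares of all genes. Trem2, a lipid-sensing receptor gene of macrophages, rose by 1.19 (SE 0.092). The syndecan gene Sdc1 fell by 0.34, while Ptprz1 was below background.

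Genes that carry the signal just beneath the receptors went both ways. Of 22 measured 6 rose and 8 fell (37.8% of all genes were called), with a median change of 0.00 against 0.04 over all genes. The falls were led by PI3 kinase subunits: the catalytic genes Pik3cg and Pik3ca fell by 1.12 (SE 0.087) and 0.78 (SE 0.10), and the regulatory gene Pik3r1 fell by 0.91 (SE 0.10). Pik3cd, another catalytic subunit gene, rose by 0.40. Sos1, an activator of RAS, fell by 0.58. The adaptor gene Shc1 rose by 0.97 (SE 0.091), the SRC family kinase gene Fgr by 0.63, the phospholipase gene Plcg1 by 0.51 and the ERK kinase gene Map2k1 by 0.50. Tyrobp and Syk, which couple CSF1R to cytoskeletal responses, changed by 0.00 each (adjusted p = 0.992 and 0.980).

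Genes listed as negative regulators split too, and whether each acts on CSF1R, KIT or FLT3 was not tested. Of 16 measured 6 rose and 4 fell, beside 19.6% and 18.3% of all genes, with a median change of 0.10 against 0.04. With centred arrays 4 were higher, Inpp5d and Socs3 losing the call, and 7 lower. Cish, a SOCS family gene induced by cytokine signals through STAT5, rose from 3.91 ± 0.11 to 8.24 ± 0.20, with no overlap (change 4.33, SE 0.11, limma adjusted p = 3.00e-09). Socs1 rose by 1.52 and the docking protein genes Dok2 and Dok3 by 0.81 and 0.82. Sla, which helps to bring receptors to degradation, fell by 1.65 (SE 0.081), the receptor phosphatase gene Ptprj by 0.85, Adam17, a protease that sheds CSF1R from the cell surface, by 0.61, and the ubiquitin ligase gene Cblb by 0.58. Cbl itself read 8.89 ± 0.15 and 8.71 ± 0.13 (adjusted p = 0.210).

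Transcription factor genes of the macrophage lineage went both ways. Of 12 measured 6 rose and 4 fell, beside 19.6% of all genes called higher and 18.3% lower, with a median change of 0.20 against 0.04 over all genes. Spi1, which encodes PU.1, a direct activator of Csf1r, fell from 10.96 ± 0.06 to 10.64 ± 0.04 (change -0.32, SE 0.078, adjusted p = 0.00903). Maf fell by 1.65, Mitf by 1.16 and Fli1 by 0.68. Ets2 rose by 1.15, Tfec by 0.98, Irf8 by 0.85 and Cebpb by 0.63. Runx1, counted among the rises (0.26, adjusted p = 0.0476), kept the call in only 9 of 18 alternative settings. It lost the call with centred arrays and when any array but vehicle replicate 2 was left out.

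Of 17 measured early and cell cycle genes listed as induced by CSF1, all above background on every array, 11 rose and 4 fell. Whether CSF1 induces each of them in these cells was not tested. Of all genes 19.6% were called higher and 18.3% lower. The list had a median change of 0.33 against 0.04 over all genes. Without PLX3397 replicate 3 the numbers were 9 and 3, and with centred arrays 8 and 4. Egr2, a zinc finger factor gene of monocyte differentiation, read 5.36, 5.75 and 5.49 with vehicle against 9.31, 9.15 and 9.17 with PLX3397 (change 3.67, SE 0.11, limma adjusted p = 7.46e-09). The urokinase gene Plau rose by 3.67, the D-type cyclin gene Ccnd2 by 2.68 and the ERK phosphatase gene Dusp6 by 2.45. The immediate-early genes Fos and Egr1 fell by 0.75 and 0.42, Spred1, which restrains RAS signalling, by 0.64, and Myc by 0.41. The fall of Myc lost the call in 7 of 18 settings, among them those without vehicle replicate 2 or 3 and without PLX3397 replicate 2 or 3. Ccnd1, the other cyclin of the list, read 5.81 ± 0.27 and 6.07 ± 0.04 (adjusted p = 0.134).

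**Figure D4:**
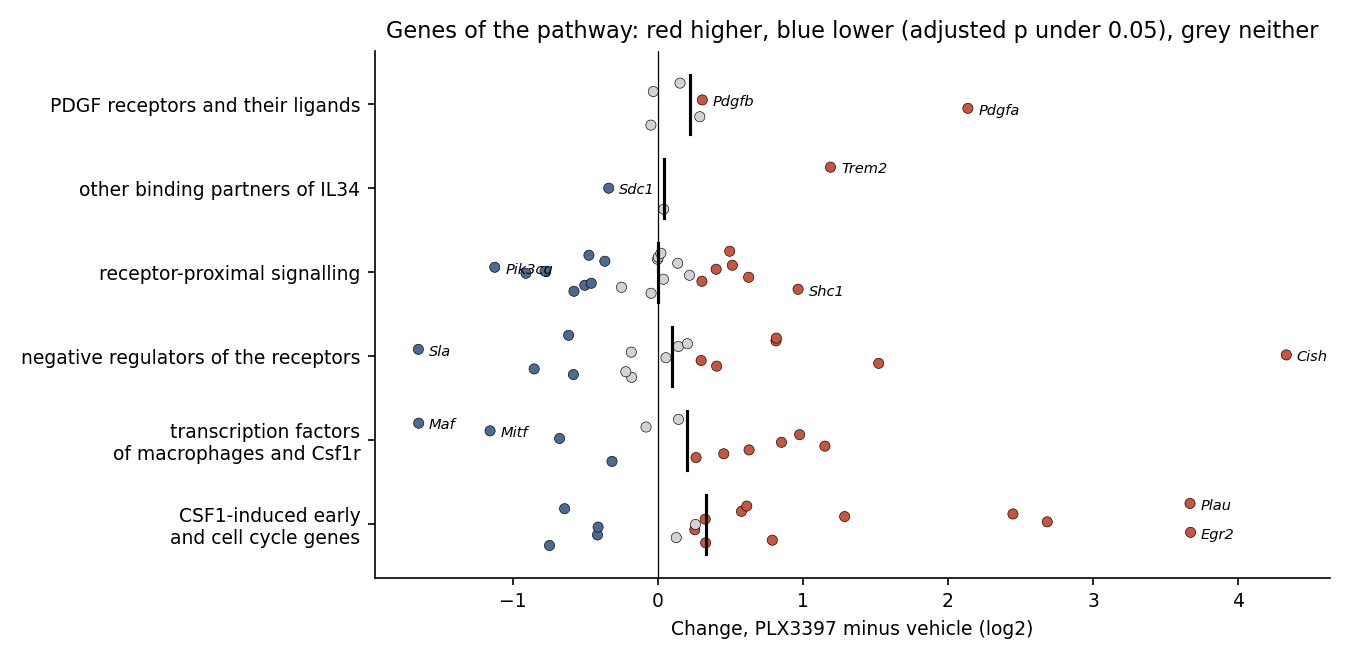
Change of every measured gene in 6 lists around the receptors, PLX3397 minus vehicle on the log2 scale, with red for genes called higher, blue for lower, grey for neither, and a black bar at the median of each list. Signalling genes and the listed negative regulators lie on both sides of 0, with Cish furthest to the right at 4.33. Egr2 and Plau, both at 3.67, lie furthest among the genes listed as induced by CSF1.

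The genes whose 6 values, each centred on its own mean, lay closest to those of Csf1 were Fgfr1, a receptor tyrosine kinase gene of another family (Euclidean distance 0.159), the membrane protease gene St14 (0.226) and the quinone reductase gene Nqo1 (0.262). Fgfr1 read 4.61, 5.10 and 5.08 with vehicle and 7.16, 7.32 and 7.18 with PLX3397, with vehicle replicate 1 lowest as for Csf1. For Kit they were Fxyd2 (0.067), Pdia4 (0.139) and Capn1 (0.141), with changes of 1.07, 1.12 and 1.02. For Flt3 they were Arfgap1, Tjap1 and Zfp747, at distances of 0.065 to 0.082. The profiles nearest to Csf1r were those of Stt3b, Cyp46a1 and Teddm1a (0.036 to 0.050), to Il34 those of Apom, Dpysl5 and Jph4 (0.057 to 0.060), to Kitl those of Ccdc85c, Msra and Cnmd (0.059 to 0.088) and to Flt3l those of Miox, Csmd3 and Nrbf2 (0.041 to 0.052). The candidates numbered 18707, each with only 6 values, so a small distance does not show shared regulation. Apom, Cnmd, Miox and Csmd3 had mean levels of 2.82, 3.43, 3.16 and 3.3, below the background level, as was Kitl itself.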

How the data were processed

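RNA of sorted tumour-associated macrophages was hybridised to 6 arrays. The values the authors deposited are log2 intensities of probe sets. No source used here states how they were summarised or normalised. MAS5 is named, without version or role, in the submitters' processing notes. The base of the logarithm was read from the range (1.57 to 13.47). Of 28941 probe sets 21789 carry 1 symbol, giving 19938 genes. Medians of the arrays differed by under 0.5, so values were used as deposited. Groups were compared with limma 3.58.1 in R 4.3.3 (group as the only term, two-sided, Benjamini-Hochberg adjustment over all genes), a script tested on simulated data. With 3 arrays against 3, an exact permutation test cannot go below 0.1, and the number of arrays limits the precision. The genes, lists, background rule and alternatives were chosen with earlier results of these data known. Of each list the genes with the largest called changes were named, at most 4 a direction (3 for marker lists), besides some of the first 3 markers. Other named genes were chosen after their values were seen. Protein sequences were not used here. Related genes can share probes.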

Additional observations from a re-analysis of the deposited data

How the results depend on the processing

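In 18 alternative settings Csf1 and Kit passed in all, Flt3 in 6, and no other of the 7 genes in any. Of 123 combinations of gene and setting 111 kept direction and side of the threshold. Signs turned for Csf1r with centred arrays (-0.043), for Il34 with quantile normalisation (-0.03), centred arrays (-0.058) and over the single-array omissions (-0.013 to 0.124), and for Flt3l with centred arrays (-0.11) and over the omissions (-0.031 to 0.073). Genes passing numbered 5309 to 10031 (the latter with all probe sets tested). Of 12 list counts, those that moved by over 1.5 times were the rises in the PDGF list, from 2 to 1 with centred arrays, at a threshold of 0.01 and over the omissions (1 to 2), and the falls among negative regulators, 7 with centred arrays; the cause was not tested. The replicate block gave 7154 genes, still with Csf1 and Kit, and called 3 fibroblast markers and 1 progenitor marker (Cd34) higher; same-numbered arrays correlated at -0.01, 0.008 and -0.013 in their deviations, and 1 of 3 vehicle arrays correlated best with its own number. With each gene on 1 probe set, a fault of that probe set cannot be seen, and Kitl, Flt3 and vehicle Kit are limited by background.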

Other observations

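The receptor genes lie beside relatives in the mouse genome. In the RefSeq annotation (GRCm38.p6) Kit stands between Pdgfra and Kdr, the gene of a VEGF receptor. Pdgfra changed by -0.05 (adjusted p = 0.775), Kit rose by 1.08, and Kdr rose from 6.25 ± 0.13 to 7.96 ± 0.01 (change 1.70, limma adjusted p = 2.82e-07). Next to Flt3 stands Pan3, which fell by 0.56 (adjusted p = 7.64e-04), and then Flt1, another VEGF receptor gene, which rose from 4.03 ± 0.23 to 5.48 ± 0.17 (adjusted p = 1.05e-05). Csf1r has Pdgfrb on one side (0.29, adjusted p = 0.071) and Hmgxb3 on the other (0.40, adjusted p = 0.00543). Beside Csf1, Ahcyl1 rose by 0.42 and Eps8l3 read 3.81 ± 0.03 and 3.80 ± 0.19. These neighbours were looked up after the data had been seen, and their differences from the receptor genes were not tested.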
